A study of Mus musculus with 3 samples.

Results

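The enzyme families that oxidise, hydrolyse and conjugate foreign chemicals, alcohols and aldehydes were examined in 3 epithelial lineages of the mouse stomach. Members were taken by symbol in the array's gene table, from the alcohol dehydrogenases (Adh), aldehyde dehydrogenases (Aldh), cytochromes P450 (Cyp), flavin-containing monooxygenases (Fmo), carboxylesterases (Ces), cytosolic glutathione transferases (Gsta, Gstk, Gstm, Gsto, Gstp, Gstt and Gstz), microsomal glutathione transferases (Mgst), sulfotransferases (Sult) and glucuronosyltransferases (Ugt1 and Ugt2). The rule found 161 of the 18194 genes measured, each read by the probe set with the highest mean of the 3 arrays. The lineages were parietal cells, which secrete acid, zymogenic cells, which secrete pepsinogen, and pit cells, which secrete mucus near the surface. Each was collected by laser capture (spots of 7.5 µm, 3000 to 5000 cells from 4 to 5 mice), pooled to 20 ng RNA, amplified and hybridised to 1 array. Parietal cells, found by DBA lectin and autofluorescence, were taken from the pit zone, and pit cells, positive for E-cadherin, from the same units. Zymogenic cells came from the unit base on other slides, so slide and lineage cannot be told apart. The sources used here give no strain, sex, age or genotype, and no treatment is named. The molecule is labelled nuclear RNA, whereas the design text speaks of total RNA.

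Detoxification runs in steps. Dehydrogenases, P450s, monooxygenases and esterases expose or create a reactive group on a molecule. Transferases then attach glutathione, sulfate or glucuronic acid, and transporters export the product. The stomach surface meets ingested alcohol, aldehydes and lipid peroxides, and class IV alcohol dehydrogenase (Adh7) is a known gastric enzyme.

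With 1 array per lineage there was no replicate error and no test. Every difference below describes 3 arrays, and fewer cells of a type cannot be told apart from less RNA per cell. The values are linear intensities. Odour and pheromone receptors (Olfr and Vmn genes), read by 80 probe sets, gave the floor: the highest of the 3 arrays' 95th percentiles, 23.3, served as the detection limit, and values under it were raised to it before any fold or log2 was taken. A fold against a value at the floor is a lower bound, written as at least that fold. Where a gene had several probe sets, the log2 ratios they gave for a pair of arrays scattered with an SD of 0.479 (785 combinations of gene and pair). It describes scatter between probe sets, not between animals or repeat arrays. Probe sets under the floor on either array of a pair were left out, so disagreement with those is not in it. Where 3 values of a gene follow each other, they are in the order parietal, zymogenic, pit. Of 9 pit markers, 7 were above the floor on the parietal array, and the whole list summed to 19779 there, against 15469 on the pit and 165 on the zymogenic array. Gkn1 (10493, 12.5 and 8307) and Gkn2 (7987, 8.28 and 2723) carried the parietal sum. The other 7 were higher on the pit array, and 4 markers, Muc5ac, Krt20, Krt7 and Lgals3, exceeded both other arrays 2-fold there. Of 10 parietal markers, 6 were above the floor on the parietal array, and the sums over all 10 were 5808, 1283 and 527. Atp4b (4402, 793 and 102) carried the parietal sum, while Atp4a (214, 261 and 12.5) and Kcnq1 (29.1, 60.5 and 3.71) were highest in zymogenic cells and Ezr (142, 13.2 and 171) in pit cells. Kcne2, Slc26a7, Hrh2 and Slc9a4 were under it on all 3. The 8 zymogenic markers measured summed to 537, 15237 and 114 in that order of arrays. Chia1 (232, 9916 and 33.9) and Pgc (217, 4593 and 9.88) carried the zymogenic sum, and like Cblif and Bhlha15 exceeded both other arrays 2-fold there. Pga5 (47.6, 30.9 and 12.7) was highest in parietal cells and Ctrb1 (31.7, 23.4 and 47.1) in pit cells. Lipf and Cpb1 were under the floor on every array. The fibroblast and smooth muscle list summed to 383, 309 and 179, and no endothelial marker was above the floor. Of the mucous neck markers, Tff2 was at 402, 21.9 and 110 and Cftr was under the floor. The 4 immune markers summed to 198, 159 and 78.0, with Cd74 at 166, 119 and 63.1.

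Of the 161 members, 49 (30.4%) were above the floor on at least 1 array, where the share over all genes was 22.7%. The parietal array held 34 of them, where 15.4% of all genes were above the floor. The pit array held 28, against 14.4% of all genes, and the zymogenic array 20, against 12.6%. The zymogenic count, 12.4% of the members, was thus at the level of all genes. The largest class was the 15 members above the floor on the parietal and pit arrays but not on the zymogenic array, a pattern that 4.39% of all genes had. A further 8 members were above it on the parietal array alone (2.83% of all genes). On the zymogenic array alone were 9 (3.83%) and on the pit array alone 6 (2.97%). Another 4 were above it on the parietal and zymogenic arrays (1.71%), and 7 on all 3 (6.52%). No member was above it on the zymogenic and pit arrays but not the parietal one, a pattern that only 0.50% of all genes had.

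The families differed in how much of each was seen. All 3 microsomal glutathione transferases were above the floor, and so were 5 of 7 alcohol dehydrogenases, 12 of 20 aldehyde dehydrogenases and 9 of 20 cytosolic glutathione transferases. Of the 73 P450s, the largest family, 11 passed. The others gave 2 of 4 Fmo, 3 of 13 Ces, 2 of 13 Sult and 2 of 8 Ugt genes. Alcohol dehydrogenases were seen mainly on the parietal array, with 5 there and 1 on each other array. Aldehyde dehydrogenases had 8 zymogenic, 7 parietal and 5 pit members above the floor, and P450s 5, 4 and 5. Carboxylesterases and monooxygenases had more pit than parietal members, 3 and 2 against 2 and 1. Monooxygenases, carboxylesterases and microsomal glutathione transferases had 0 members above the floor on the zymogenic array. As 12.6% of all genes were above it there, families of 4, 13 and 3 members would hold few.

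**Figure D1:**
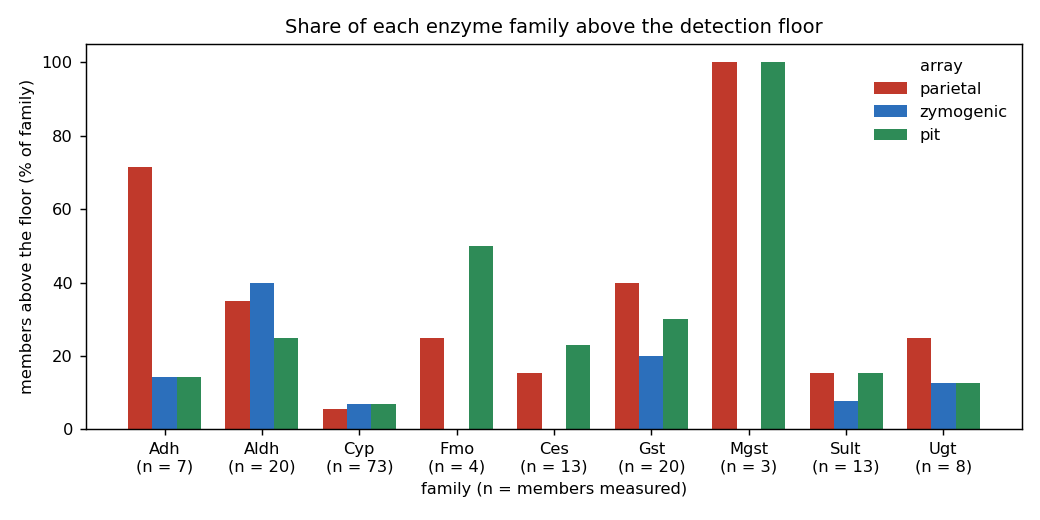
Bars give the percentage of each family's measured members above the detection floor on the parietal, zymogenic and pit arrays, with the number of members under each family name. All 3 Mgst genes passed on the parietal and pit arrays and 0 on the zymogenic array, while the 8 Aldh genes on the zymogenic array outnumber the 7 and 5 on the parietal and pit arrays.

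At least 2-fold above both other arrays were 12 members on the parietal array, 5 on the pit array and 4 on the zymogenic array. Over all genes the shares so called were 1.7%, 1.31% and 1.57%. A further count, of members at least 2-fold below both others, gave 13 on the zymogenic array (2.52% of all genes), 0 on the parietal array (0.0879%) and 0 on the pit array (0.594%). Low genes cannot pass such a threshold, so the same was counted among the 32 members, and 2636 genes in all, whose mean over the arrays exceeded the floor. All of these calls fell within the 32. The background there was 11.5% for higher on the parietal array, 8.8% for the pit array and 9.67% for the zymogenic array. For lower values it was 17.4% for the zymogenic array, 0.607% for the parietal and 4.1% for the pit array. The 4 zymogenic-high members of the 32 therefore lay near the background, and the 5 pit-high members somewhat above it. The 12 parietal-high and 13 zymogenic-low members lay further above it, as a description of these arrays.

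Over the 32 members the median log2 difference of parietal minus pit values was 0.74, beside 0.10 over the 2636 genes. It was -2.07 for zymogenic minus parietal values, beside -0.56, and -1.03 for zymogenic minus pit values, beside -0.26. Counted by pair of arrays, 12 of the 32 were at least 2-fold higher in parietal than in pit cells (18.6% of the 2636 genes) and 5 the other way (9.79%). Parietal exceeded zymogenic values 2-fold for 21 members (32.4%), and the reverse held for 4 (10.8%). Pit exceeded zymogenic values 2-fold for 16 (29%), and the reverse held for 4 (15%). Pooled, the conjugating enzymes went further than the oxidising and hydrolysing ones. For zymogenic minus parietal values the median was -2.94 over 12 conjugating enzymes and -1.18 over 20 others, and for zymogenic minus pit values it was -1.54 and -0.16. This did not hold family by family. For zymogenic minus pit values Ces (-3.73) and Fmo (-2.07) went further than Gst (-1.35), Sult (-1.30) and Ugt (-1.61), with Mgst at -3.65. Cyp was at -0.84, Adh at 0 and Aldh at 0.08. For zymogenic minus parietal values Ces (-2.81) went further than every conjugating family but Mgst (-3.87).

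**Figure D2:**
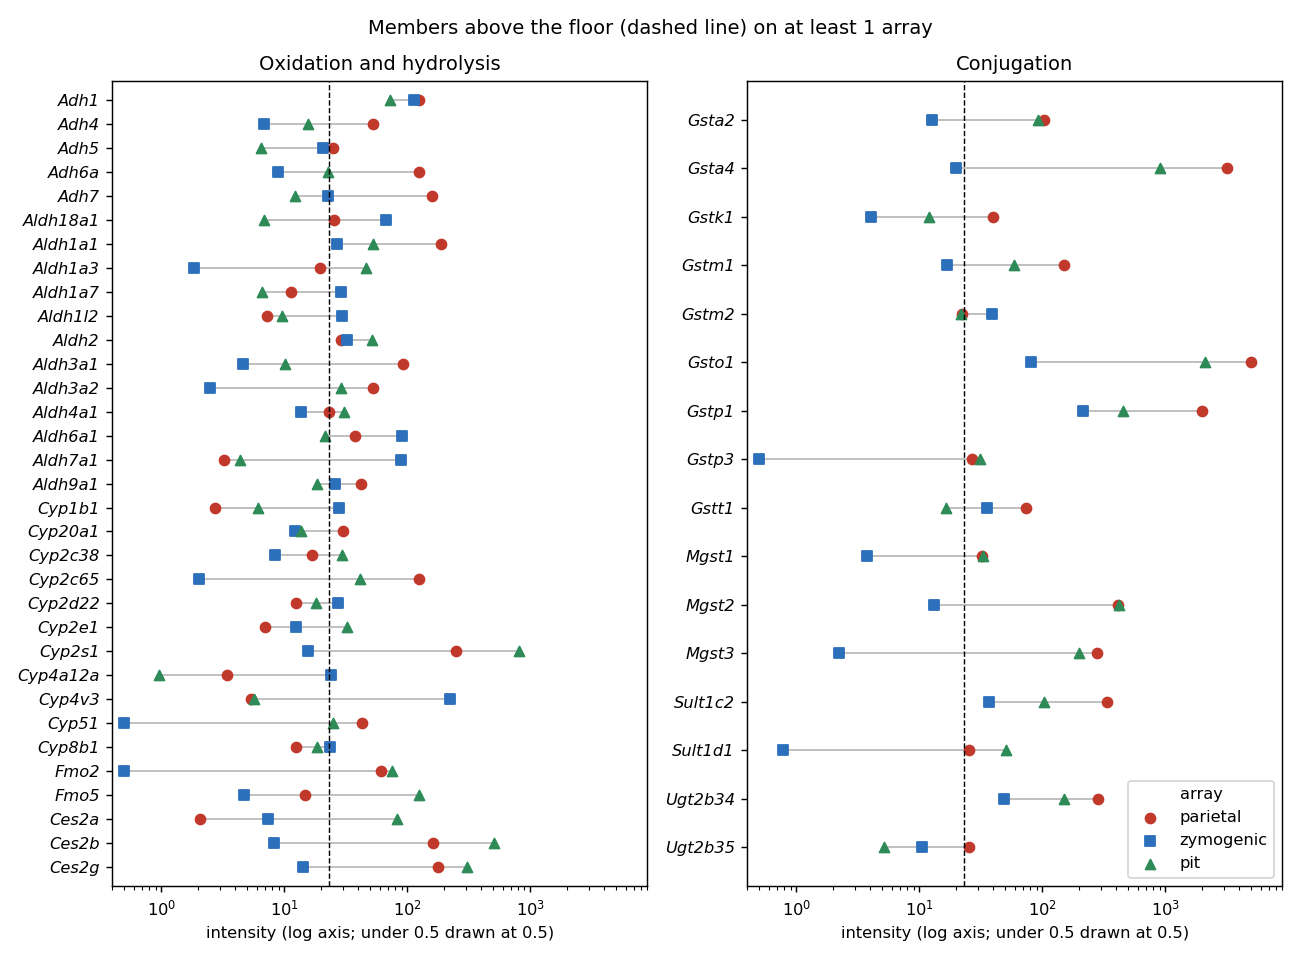
Each row is 1 of the 49 members above the floor (dashed line) on at least 1 array, with its intensity on the parietal (circle), zymogenic (square) and pit (triangle) arrays on a log axis. In the conjugation panel the zymogenic symbol lies leftmost for 13 of 16 members (symbols left of the line have no order). Over all genes above the floor on at least 1 array, the zymogenic value was lowest for 2135 of 4138. Among the Aldh and Cyp genes of the other panel each array is rightmost for some.

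Alcohol dehydrogenases oxidise alcohols to aldehydes, and 6 of the 7 Adh genes measured lie side by side in the RefSeq assembly GRCm38.p6, in the order Adh7, Adh1, Adh6a, Adh6b, Adh4, Adh5. Their values differed within this row. Adh7, the class IV enzyme that also oxidises retinol, stood at 159 (parietal), 22.9 (zymogenic) and 12.2 (pit), at least 6.84-fold above both others. Its second probe set went another way, with 45.7, 1.19 and 49.2, so that the parietal and pit arrays were level there. Adh6a stood at 124, 8.82 and 22.9 in the same order of arrays, a parietal excess of at least 5.35-fold.

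Adh4, a class II enzyme, was at 52.5 in parietal cells and under the floor elsewhere, at least 2.26-fold higher. Adh1, the class I ethanol enzyme, did not separate the lineages to that degree, with 124, 113 and 72.5. It was the only Adh gene above the floor on all 3 arrays. Adh5, which handles formaldehyde bound to glutathione, barely passed at 24.8, 20.5 and 6.52. Adh6b and the pseudogene Adh6-ps1 stayed under the floor.

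Aldehyde dehydrogenases oxidise the aldehydes to acids, and many belong to amino acid or vitamin A metabolism. Aldh1a1, a retinal dehydrogenase, stood at 187 (parietal), 26.8 (zymogenic) and 52.5 (pit), 3.56-fold above the pit array. Aldh3a1, known from the cornea and active on aldehydes of lipid peroxidation, was at 92.5, 4.65 and 10.2, at least 3.98-fold above both others. The parietal array held the highest value of both. Aldh3a2, the fatty aldehyde enzyme next to Aldh3a1 in gene order, was at 52.8, 2.47 and 28.9, which is 1.83-fold from the pit array.

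The zymogenic array was highest for 5 of the 12 Aldh genes that passed, beside 1132 of the 4138 genes that passed in all. Of these 5, 3 were at least 2-fold above both others (1.57% of all genes). Aldh7a1, an enzyme of lysine breakdown, stood at 3.26 (parietal), 88.3 (zymogenic) and 4.39 (pit), at least 3.80-fold higher. Its 2 further probe sets never passed the floor. Aldh6a1, of valine breakdown, was at 38.0, 91.0 and 21.3, 2.40-fold above the parietal array. Aldh18a1, which makes the precursor of proline, was at 25.5, 66.9 and 6.83, 2.63-fold above the parietal array.

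Of the 4 further probe sets of Aldh18a1, 3 gave zymogenic values of 51.6 to 59.5 with both other arrays under the floor, and the last was under it throughout. Aldh1a7 and Aldh1l2, a mitochondrial folate enzyme, just passed on the zymogenic array alone at 28.7 and 29.6. Aldh2, the mitochondrial acetaldehyde enzyme, was above the floor on all 3 arrays at 28.8, 32.4 and 51.9, less than 2-fold apart. Aldh1a3, another retinal dehydrogenase, reached 46.3 on the pit array against 19.6 and 1.84 on the parietal and zymogenic arrays. Aldh4a1, of proline breakdown, was at 23.2, 13.7 and 30.6, and Aldh9a1, of carnitine synthesis, at 41.9, 26.0 and 18.4. The remaining 8 Aldh genes stayed under the floor, among them Aldh1a2, Aldh1b1 and Aldh5a1.

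Cytochromes P450 insert oxygen into drugs, steroids and fatty acids. Of the 73 measured, 62 stayed under the floor on every array, including Cyp1a1, Cyp1a2, Cyp2b10, Cyp3a11 and the steroid enzymes Cyp11a1 and Cyp17a1. The 5 P450s that passed on the zymogenic array did so there alone, and 4 of them, Cyp1b1, Cyp2d22, Cyp4a12a and Cyp8b1, only at 23.7 to 27.8. At the edge of the floor, Cyp8b1 (23.7), Cyp4a12a (23.9) and Adh5 (24.8) were the last members inside, and Gstt3 (21.7), Cyp2j6 (21.7) and Cyp2c68 (20.5) the first outside.

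Cyp2s1, a P450 known from epithelia outside the liver, stood at 249 (parietal), 15.5 (zymogenic) and 819 (pit). It was 3.28-fold higher on the pit than on the parietal array and at least 35.2-fold higher than on the zymogenic array. Cyp2c65, a gut P450, went the other way between the first pair, at 126, 2.02 and 41.6, a parietal excess of 3.02-fold. It was 1 of 2 genes above the floor among the 10 members measured in the Cyp2c row, the other being Cyp2c38 at 29.7 on the pit array.

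Cyp4v3, a fatty acid hydroxylase, had the largest zymogenic excess of any member, at 5.37, 221 and 5.65, at least 9.52-fold. Its other probe set was under the floor on all 3 arrays, at 18.2, 17.1 and 20.1. Cyp51, of cholesterol synthesis, was at 43.3, 0.0324 and 25.0. Cyp20a1 reached 30.1 on the parietal array and Cyp2e1, an ethanol-oxidising P450, 32.2 on the pit array, each alone there.

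Monooxygenases and carboxylesterases were seen on the pit and parietal arrays. They had no member above the floor on the zymogenic array, where 12.6% of all genes were above it. Fmo5 stood at 14.7 (parietal), 4.72 (zymogenic) and 126 (pit), at least 5.40-fold above both others. Both of its further probe sets were under the floor. Fmo2 was at 61.4, 0.173 and 75.9, at least 2.64-fold lower on the zymogenic array, and its 4 further probe sets were also under the floor. Its order between parietal and pit cells turned with scaling to BioB and BioC, to a log2 value of 0.92.

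Carboxylesterases cleave ester and amide bonds of drugs and lipids. All 3 that passed came from the Ces2 group, the intestinal type, whose 5 measured members lie in 1 row of the genome. Ces2b was at 163 (parietal), 8.32 (zymogenic) and 512 (pit), 3.15-fold above the parietal array. Ces2a was above the floor on the pit array alone, at 82.6, at least 3.55-fold. Ces2g was at 179, 14.3 and 308, 1.72-fold apart between the parietal and pit arrays. All 3 were highest on the pit array as deposited, but with scaling to BioB and BioC Ces2g turned to a log2 parietal minus pit value of 0.44. The 6 measured members of the liver-type Ces1 group stayed under the floor throughout.

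Cytosolic glutathione transferases join glutathione to reactive molecules, and their values summed to 10629 (parietal), 509 (zymogenic) and 3785 (pit). Gsto1, of the omega class, stood at 4992, 80.9 and 2119.6, 2.35-fold above the pit and 61.7-fold above the zymogenic array. A second probe set gave 4365, 50.6 and 1402, with the same calls. Gsta4, which clears aldehydes of lipid peroxidation, was at 3165, 20.0 and 908, 3.48-fold above the pit array and at least 136-fold above the zymogenic array. Both were far above the zymogenic array on the parietal and pit arrays alike.

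Gstp1, of the pi class, was at 1976, 215 and 455, 4.34-fold above the pit and 9.19-fold above the zymogenic array. Gstm1, of the mu class, was at 151, 16.9 and 59.2, 2.55-fold above the pit array. Its 3 further probe sets also had the lowest value on the zymogenic array, and less than 2-fold lay between their parietal and pit values, 83.9 and 66.1 for the brightest. Gstt1, of the theta class, was at 73.7, 35.5 and 16.5, with the pit array and not the zymogenic array lowest. Gsta2 was at 103, 12.7 and 93.0, and its log2 parietal minus pit value of 0.14 became -0.19 after quantile normalization and 1.37 with scaling to BioB and BioC.

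The other members of the family were dim. Gstk1 reached 39.6 on the parietal array alone, and Gstp3, beside Gstp1 in the genome, was at 26.9, 0.261 and 31.4. Among the transferases above the floor, Gstm2 alone had its highest value on the zymogenic array, at 39.1 against 22.3 and 21.7. That is at least 1.68-fold, and it turned to a log2 zymogenic minus parietal value of -0.41 with scaling to BioB and BioC. The remaining 11 Gst genes, among them Gsta3 and Gstz1, stayed under the floor.

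Microsomal glutathione transferases sit in membranes and act on lipid hydroperoxides and leukotrienes. Mgst2 was at 414 (parietal), 13.2 (zymogenic) and 424 (pit), at least 17.8-fold lower on the zymogenic array than on either other. Mgst3 was at 278, 2.21 and 200.3, at least 8.61-fold lower there. Mgst1 was dimmer, at 32.6, 3.79 and 33.1, and likewise under the floor in zymogenic cells. As deposited, parietal and pit values of all 3 were less than 1.5-fold apart. With scaling to BioB and BioC, Mgst1, Mgst2 and Mgst3 had log2 parietal minus pit values of 1.20, 1.19 and 1.70.

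**Figure D3:**
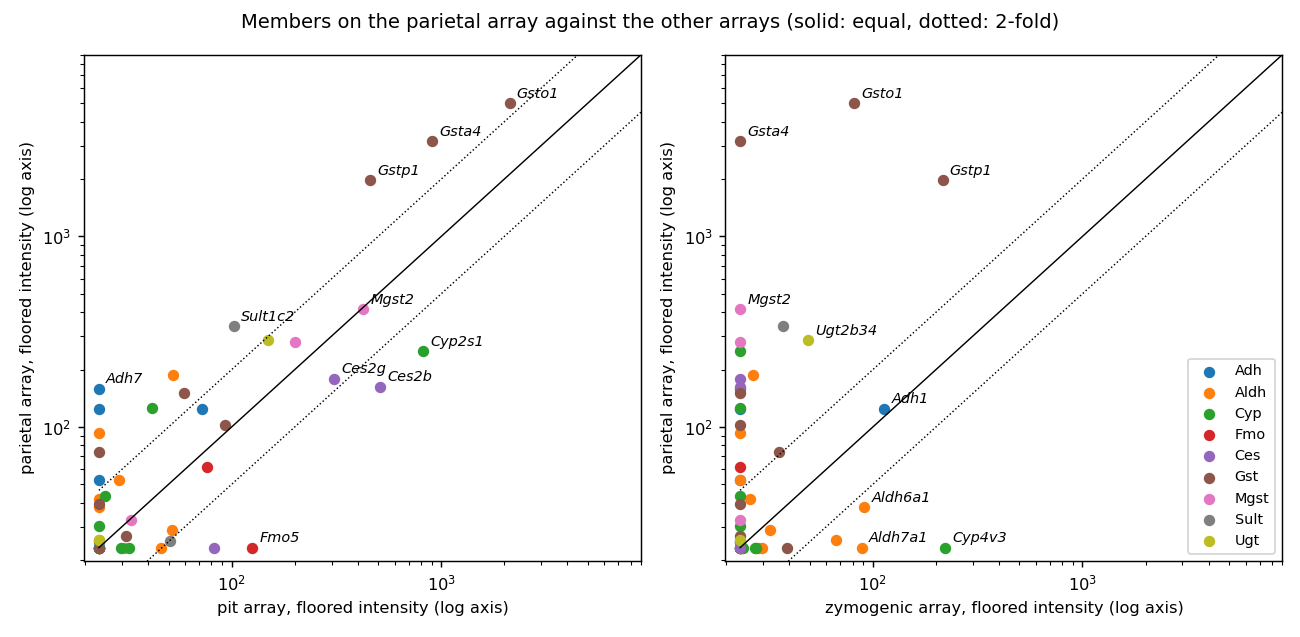
Each point is 1 of the 49 members, with its floored intensity on the parietal array (vertical log axis) against the pit array (left) or the zymogenic array (right). Solid lines mark equal values and dotted lines 2-fold differences. Gsto1, Gsta4 and Gstp1 lie above the upper dotted line in both panels, Cyp2s1 and Ces2b lie below the lower one at the left, and Cyp4v3, Aldh7a1 and Aldh6a1 lie below it at the right.

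Sulfotransferases and glucuronosyltransferases had few members above the floor. Sult1c2 was at 337 (parietal), 37.1 (zymogenic) and 103 (pit), 3.28-fold above the pit array. Sult1d1, which sulfates catecholamines, was at 25.2, 0.781 and 50.8, 2.01-fold higher on the pit array, which turned to a log2 ratio of -0.21 with scaling to the spiked controls BioB and BioC. Its second probe set had the same order at 15.7, 1.23 and 25.9. Ugt2b34 was at 285, 49.1 and 149, 3.05-fold lower on the zymogenic than on the pit array and 1.91-fold apart between the others. Ugt2b35 reached 25.4 on the parietal array alone. Of these 4 genes, Sult1d1 was the exception with its highest value in pit cells.

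Each of these calls rests on few probe sets. Of the 27 members at least 2-fold above or below both other arrays, 16 had 1 probe set and 6 had further ones that were all under the floor. Among the other 5, a further probe set shared a 2-fold call for Gsto1, Gstm1 and Aldh18a1, and did not for Adh7 or Sult1d1. For Gstm1 only the zymogenic-low call was shared, and no further probe set shared its parietal-high call. Probe sets of 11 of the 49 members carry a name suffix that marks possible binding to several transcripts. Near-identical relatives such as the Gstp, Gsta and Ugt2b genes may not be told apart by them. The agreeing probe sets of Aldh18a1 all carry such a suffix, and the probe set without one was under the floor on every array. With transcript-specific probe sets only, calls of Cyp2c65, Gstp1, Aldh18a1, Cyp4v3, Fmo5, Gsta2 and Ugt2b34 were lost or could not be made.

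**Figure D4:**
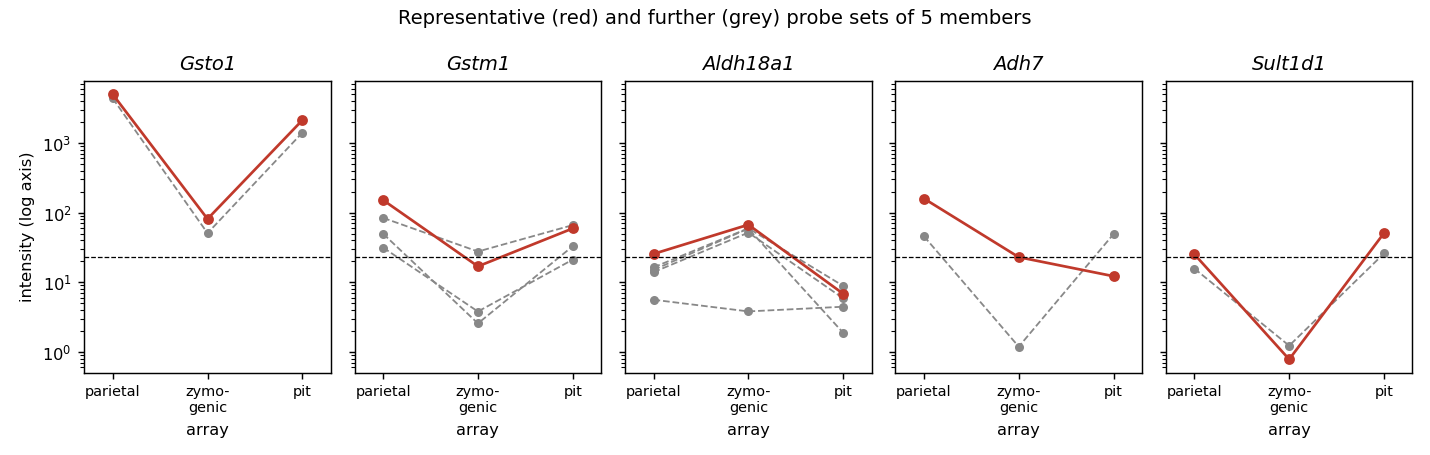
Lines join the intensities (log axis) of each probe set on the parietal, zymogenic and pit arrays for 5 members, red for the probe set used and grey for further ones, and the dashed line is the floor. The 2 probe sets of Gsto1 run in parallel, while those of Adh7 part on the pit array at 12.2 and 49.2.

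Of the 12 parietal-high members, 7 were also above the floor on the pit array and lower on the zymogenic array, as was 1 of the 9 pit markers, Gkn2, and the mucous neck marker Tff2 (each at least 2-fold higher in parietal cells). Gkn1 was less than 2-fold higher in parietal than in pit cells, and 5 other pit markers above the floor on both arrays were higher in pit cells. The part of pit or neck cell RNA in the parietal values was not tested. The 4 zymogenic-high members stood beside endocrine markers, of which 5 of 6 were above the floor on the zymogenic array (summed level 955, and 39.0 and 65.0 in the parietal and pit samples), and their part was not tested either. These enzyme families are abundant in liver, and the 5 hepatocyte markers measured summed to 1004, 3073 and 72.0. Alb, Apoa2 and Apoh were under the floor throughout, with Alb at 3.91, 8.46 and 5.41. Apoa1 was at 734, 158 and 12.4 and Ttr at 232, 2889 and 31.1, and their part was not tested.

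Of the 56 measured genes that supply or control these pathways, 25 were above the floor (22.7% of all genes). On the zymogenic array 13 were at least 2-fold below both others (2.52% of all genes) and 0 at least 2-fold above (1.57%), and on the parietal array 4 were at least 2-fold above both others (1.7%). Pgd, which makes NADPH, stood at 1625 (parietal), 92.9 (zymogenic) and 1370.4 (pit), 14.8-fold lower on the zymogenic than on the pit array. Ugdh, which makes the sugar donor for glucuronidation, was at 140, 4.20 and 154. Nqo1, a quinone reductase, was at 166, 0.941 and 135.

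By list, 4 of 9 electron donor and cofactor genes, 1 of 6 glutathione supply genes, 6 of 15 other detoxifying enzymes, 1 of 11 regulators and 1 of 8 exporters were among the 13. Cbr3, a carbonyl reductase, was at 514, 49.8 and 215, and Abcc3, an exporter of conjugates, at 273, 3.40 and 453. Nfe2l2, the factor Nrf2 that drives many of these genes, was at 139 on the parietal array against 13.6 and 23.3, at least 5.94-fold higher. Its inhibitor Keap1 was at 49.3, 10.9 and 28.8. Cbr3, Ugp2 and Akr1c13 were the others with a parietal excess of 2-fold or more, by 2.39-fold, 3.42-fold and 3.21-fold. Of the glutathione supply genes, Gss was at 72.1, 8.36 and 66.9, while Gclc, Gclm, Gsr and Slc7a11 stayed under the floor. The receptors Ahr, Nr1i2 and Nr1i3, which switch on P450 genes, stayed under it too.

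**Figure D5:**
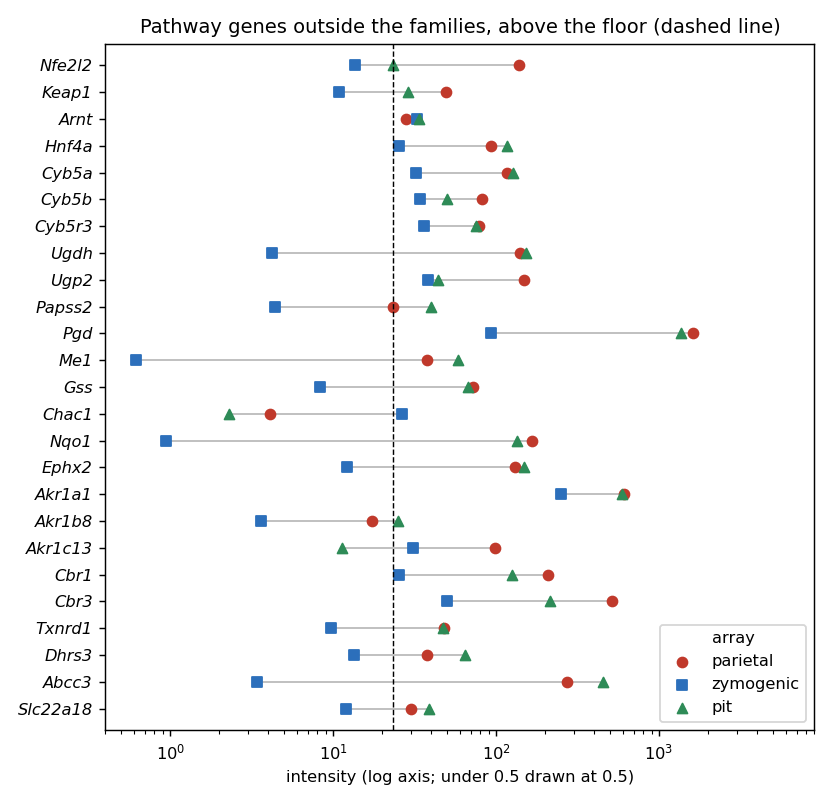
Rows give the 25 pathway genes outside the families that were above the floor (dashed line) on at least 1 array, with intensities on the parietal, zymogenic and pit arrays on a log axis. Zymogenic values of Pgd, Ugdh, Nqo1 and Abcc3 lie far to the left of the others, and Chac1 is the gene whose zymogenic value alone passes the floor.

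Promoters were searched because many members were low together on the zymogenic array. RefSeq (GRCm38.p6) start sites gave 124 of the 161 members a window, of which the 250 bases before the start were used, and 40 of the 49 members above the floor had one. The core of the antioxidant response element, TGACNNNGC on either strand, occurred in 4 of these 40, beside 10.1% of 27025 promoters. The core of the xenobiotic response element, TNGCGTG, occurred in 5 (12.5%, beside 4.19%). The AP-1 site TGANTCA, added after the sequences had been looked at, also occurred in 5 (12.5%, beside 6.85%). No matches of different motifs overlapped in these 40 windows. The 11 members with a window that were at least 2-fold lower on the zymogenic array held 0 matches of the first, 1 of the second and 2 of the third. A match is a run of letters and not a shown binding site.

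A set of 4 windows with the AP-1 letters in capitals is shown for members called above. Gstp1, Aldh1a1 and Adh7 had a parietal excess and Mgst2 was high on the parietal and pit arrays. They were picked for these letters, which 3 of the 10 parietal-high members with a window held. Gstp1 lies at chr19:4037913-4038162 (minus strand), Aldh1a1 at chr19:20492333-20492582 (plus), Adh7 at chr3:138217523-138217772 (plus) and Mgst2 at chr3:51660929-51661178 (plus). The starts used for Adh7 and Mgst2 lie inside the RefSeq gene span.
Gstp1: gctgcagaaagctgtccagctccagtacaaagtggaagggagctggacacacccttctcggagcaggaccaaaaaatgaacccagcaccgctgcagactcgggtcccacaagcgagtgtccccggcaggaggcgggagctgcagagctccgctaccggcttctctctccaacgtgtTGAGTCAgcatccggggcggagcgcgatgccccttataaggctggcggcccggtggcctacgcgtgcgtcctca
Aldh1a1: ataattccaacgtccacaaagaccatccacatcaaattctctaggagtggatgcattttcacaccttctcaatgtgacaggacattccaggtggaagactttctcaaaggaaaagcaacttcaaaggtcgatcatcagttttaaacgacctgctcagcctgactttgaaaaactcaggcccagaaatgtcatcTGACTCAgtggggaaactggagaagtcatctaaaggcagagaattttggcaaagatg
Adh7: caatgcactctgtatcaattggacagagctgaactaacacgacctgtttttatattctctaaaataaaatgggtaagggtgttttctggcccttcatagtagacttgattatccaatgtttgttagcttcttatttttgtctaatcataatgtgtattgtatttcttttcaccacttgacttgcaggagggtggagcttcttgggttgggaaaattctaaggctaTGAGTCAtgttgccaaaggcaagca
Mgst2: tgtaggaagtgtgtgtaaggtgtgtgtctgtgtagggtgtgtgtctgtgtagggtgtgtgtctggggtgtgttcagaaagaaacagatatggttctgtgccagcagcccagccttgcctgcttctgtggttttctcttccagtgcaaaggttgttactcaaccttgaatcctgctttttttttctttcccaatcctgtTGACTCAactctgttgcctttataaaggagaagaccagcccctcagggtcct
The match starts 74 bases before the start in Gstp1, 57 in Aldh1a1, 25 in Adh7 and 52 in Mgst2. The Gstp1 window is rich in CpG, with 18, and those of Mgst2, Adh7 and Aldh1a1 hold 0, 1 and 3, where the median promoter holds 6.

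Windows without any of the 3 motifs are shown for Cyp2s1, highest in pit cells, at chr7:25816526-25816775 (minus strand), and for the zymogenic-high Cyp4v3 at chr8:45333164-45333413 (minus strand). No letters are capitals in them. Windows without the AP-1 letters were the larger part among the parietal-high members too.
Cyp2s1: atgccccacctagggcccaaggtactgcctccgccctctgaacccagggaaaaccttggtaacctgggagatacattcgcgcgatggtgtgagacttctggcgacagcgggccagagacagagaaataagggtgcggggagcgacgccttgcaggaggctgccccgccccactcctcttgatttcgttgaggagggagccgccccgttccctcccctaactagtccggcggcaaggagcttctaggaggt
Cyp4v3: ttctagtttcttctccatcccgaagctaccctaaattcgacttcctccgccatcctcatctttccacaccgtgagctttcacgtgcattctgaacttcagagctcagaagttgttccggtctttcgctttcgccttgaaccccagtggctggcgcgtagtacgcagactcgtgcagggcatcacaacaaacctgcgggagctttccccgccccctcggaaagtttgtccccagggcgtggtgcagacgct
These windows hold 15 and 17 CpG.

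The counts of calls depended on the scaling of the arrays. As deposited, genes above the floor on all 3 arrays had a median log2 difference of 0.29 for parietal minus pit, -0.64 for zymogenic minus parietal and -0.21 for zymogenic minus pit values. BioB and BioC, RNAs spiked in at hybridisation, had geometric means of 299.8, 700.3 and 701. Scaled to them, 26 members had a parietal excess of 2-fold or more, 2 a zymogenic and 2 a pit excess, while the parietal share over all genes rose to 10.8%. The zymogenic excess of Aldh18a1 and Aldh6a1 then shrank to log2 ratios of 0.17 and 0.04, and the pit excess of Ces2b and Cyp2s1 to 0.43 and 0.49. Of the 49 members, 9 turned direction between parietal and pit cells under that scaling (Aldh2, Aldh4a1, Ces2g, Cyp2c38, Fmo2, Gstp3, Mgst1, Mgst2 and Sult1d1). Between zymogenic and parietal cells 4 turned (Aldh2, Cyp2d22, Cyp8b1 and Gstm2), and between zymogenic and pit cells 0. That 0 says nothing of the order of the pair, whose control means (700.3 and 701) were nearly equal, so this scaling left it almost unchanged. A difference of 0 as deposited, with both values at the floor, could not count as turned in any pair. After quantile normalization 1 turned in each of the first pairs, Gsta2 and Adh1, the latter to a log2 zymogenic minus parietal value of 0.63. Scaling to a common median turned Mgst1 and Mgst2, to log2 parietal minus pit values of 0.02 and 0.01. After quantile normalization Adh4, Gsta4, Gsto1 and Gstt1 were under 2-fold above the higher of the other arrays (log2 ratios of 0.78, 0.998, 0.70 and 0.52), and Gstp1 gave -0.38 for zymogenic minus pit values.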

How the data were processed

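RNA of pooled, laser-captured cells was read on 3 Affymetrix Mouse Genome 430 2.0 arrays, 1 per lineage, per the labels. The authors deposited linear intensities, 1 for each probe set on each array. For the summary method, background correction and scaling nothing is stated (not given in the sources used here). No scaling was added in the main setting. Of 45101 probe sets, 34958 name 1 gene in the platform's gene table, and 932 naming several were left out. "Ugt1" and "Ugt2" were read as complete prefixes. Gene identifiers of all 161 members were in the RefSeq table (GRCm38.p6), used for names and gene order.

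The floor, folds, counts and medians were computed with Python 3.11.15, numpy 2.4.6, pandas 2.3.3 and matplotlib 3.10.9 and tested on simulated data. Every member above the floor on at least 1 array is named, with 3 values where it was 2-fold above or below both other arrays or 4-fold apart on arrays above the floor, and for each family's brightest. The members, lists and rules were chosen with earlier results of these data known. The number of arrays limits precision. Alternatives covered scaling, floor, pseudocount, choice of probe set and fold threshold. Leaving out an array and the AP-1 motif were added after seeing the data.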

Additional observations from a re-analysis of the deposited data

Results flagged for a closer look

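Probe sets that name several genes were left out above, and 4 of the 12 that touch these families were above the floor. One that names 3 genes, of which 2 are in the Gsta group, stood at 361 (parietal), 5.37 (zymogenic) and 142 (pit). The other 3 each name 8 genes of the Ugt1 group. They stood at 97.1, 5.48 and 193, at 81.4, 5.11 and 153, and at 22.6, 1.57 and 46.1 on the same arrays. All 4 were under the floor on the zymogenic array, and the Ugt1 probe sets were highest on the pit array, whereas both Ugt2 genes above the floor were highest on the parietal array. No gene can be named from these values. With 1 array per lineage, no group could be checked for a sample apart from the others.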

How the results depend on the processing

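No paired analysis was possible because each lineage has 1 array and no result comes from a test. The number of members above the floor was 78 at a 90th percentile floor and 30 with the floor doubled, against 49. For the counts that follow, percentages in brackets give the share over all genes. The parietal-high count of 12 (1.7%) became 26 with BioB and BioC scaling (10.8%) and 3 at 4-fold (0.264%). It ranged from 12 to 21 with 1 array left out (21 without the pit array, 4.74%). With BioB and BioC scaling the zymogenic-high count of 4 (1.57%) became 2 (0.94%). It was 8 at a 90th percentile floor (3.67%) and 1 with the floor doubled (0.802%). It was 2 with the floor as a pseudocount (1.58%), 2 with transcript-specific probe sets (1.25%) and 1 at 4-fold (0.588%). It stayed 4 without the parietal (2.35%) or the pit array (1.74%). The pit-high count of 5 (1.31%) became 2 with BioB and BioC scaling (0.275%), 3 with the floor doubled (0.638%) and 1 at 4-fold (0.203%). It ranged from 5 to 16 with 1 array left out (16 without the parietal array, 4.24%). The zymogenic-low count of 13 (2.52%) became 20 at a 90th percentile floor (4.75%) and 7 at 4-fold (0.896%). It ranged from 16 to 21 with 1 array left out (21 without the pit array, 4.74%). The median log2 of parietal minus pit values (0.74) became 1.56 with BioB and BioC scaling and 0.14 at a 90th percentile floor. Over all genes whose mean passed the floor, the same median was 0.10, and became 1.20 and 0.01. For zymogenic minus parietal values the members' median (-2.07) became -1.39 after scaling to a common median and -0.76 at a 90th percentile floor. Over all such genes it was -0.56, and became -0.64 and -0.34. For zymogenic minus pit values the members' median (-1.03) became -0.50 with BioB and BioC scaling, while that of all such genes went from -0.26 to 0.0. Over the 27 members called 2-fold above or below both other arrays, 190 of 268 log2 ratios behind these calls moved by less than 0.479. A further 77 moved by more, and 1 changed sign, Sult1d1 on the pit array, at -0.21 with BioB and BioC scaling. These ratios began at 2-fold or more, so few could change sign. Among all 49 members above the floor more turned between pairs of arrays, as given above. Fewer members pass a higher floor by construction. With 1 array left out, each call rests on a single pair of arrays, so no count can fall. The 21 and 16 without the pit or the parietal array repeat the counts by pair of arrays given above. Other causes of these changes were not tested.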
